A study of Drosophila melanogaster with 9 samples.

Results

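Whole Drosophila melanogaster embryos that misexpressed 4 transcription factors of neural stem cells were compared with driver-only embryos by RNA sequencing. The comparison rests on 6 of the 9 libraries of the series, 3 labelled Quad and 3 labelled control, taken from the sample titles. Control embryos carried the Insc-Gal4 driver over OregonR chromosomes. Quad embryos carried the same driver with UAS transgenes of Kr, ase, SoxN and wor. The other 3 libraries, labelled Hexa, had UAS transgenes of hb and nub in addition to those 4 and enter only where Quad is set against them. Embryos of each genotype were collected in 3 biological replicates of more than 200 embryos, between stage 16 and the air filling of the trachea, and total RNA was sequenced on HiSeq2500 with 150 bp reads.

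All groups share the Gal4 driver, and no group had the transgenes without it, so effects of the transgene insertions or the chromosomes that carry them cannot be told apart from effects of the misexpression. The sample descriptions place the control in experiment 1 and Quad in experiment 2, while the text of the series pairs each misexpression with a control, and it assigns 1 sequencing lane to each experiment. By the sample descriptions, experiment and genotype therefore cannot be told apart. Whole embryos were pooled, so a gene expressed in fewer cells and a gene expressed at a lower level per cell cannot be told apart either.

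The Gal4-UAS system is a pair of transgenes in which the yeast activator Gal4, expressed here under the control region of inscuteable, switches on any gene placed behind its UAS binding sites. Neuroblasts are neural stem cells and express inscuteable when they divide asymmetrically to renew themselves and to give off a smaller daughter cell. Asense (ase) is a proneural basic helix-loop-helix factor of neuroblasts, worniu (wor) a zinc finger protein of the Snail family, SoxNeuro (SoxN) a Sox factor of the early neuroectoderm, and Krüppel (Kr) a zinc finger factor of the temporal series by which neuroblasts change the progeny they make. At the end of embryogenesis most neuroblasts have stopped dividing, the epidermis secretes and hardens the larval cuticle, and gut, excretory and sensory organs begin to express the genes of larval life.

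The deposited count columns summed to 11338459 to 11687961 reads in the controls and 10297721 to 11465747 in Quad. Expression is given as RPKM, in which reads are scaled by transcript length and by library size. The test covered genes that reached 0.5 RPKM in 3 or more of the 9 libraries, 6190 of 10221, on log2(RPKM + 0.1) with limma, and a gene is called where the Benjamini-Hochberg adjusted p is under 0.05. Every adjusted p below comes from this fit over all 6190 genes, and every log2 change is on that scale with its standard error from the fit (SE). The libraries of a group resembled each other more than those of the other group: the correlations of log2 values across genes were 0.978 to 0.979 within Quad, 0.962 to 0.984 within the controls and 0.942 to 0.959 between them. Control 2 stood apart from control 1 and control 3, with 0.962 and 0.963 against 0.984 between the other two.

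Of the 4 misexpressed genes, 3 were higher in Quad. The level of wor was 2.98, 2.56 and 3.11 RPKM in the controls and 18.0, 10.9 and 16.4 in Quad (log2 2.32 ± 0.241, adjusted p = 6.28e-04). For ase the levels were 2.45, 2.40 and 2.35 RPKM in the controls and 5.35, 5.02 and 4.48 in Quad (log2 1.01 ± 0.143, adjusted p = 0.00392). SoxN had 20.3, 24.8 and 20.4 RPKM in the controls and 38.1, 38.6 and 37.6 in Quad (log2 0.81 ± 0.155, adjusted p = 0.0187). In each of the 3 genes every Quad library lay above every control. The call of SoxN was lost on leaving out control 1, control 3 or a single Quad library, at a highest adjusted p of 0.0841. A limma fit with a replicate term lost it too (adjusted p = 0.0531). SoxN has 0 reads in the count columns of the 6 libraries, so its call rests on RPKM alone. For Kr the groups overlapped, with 6.61, 8.20 and 6.91 RPKM in the controls and 6.11, 6.71 and 5.40 in Quad, and no difference was called (adjusted p = 0.384). Reads of a transgene and of the endogenous gene are not separated in these values. Of the genes that only Hexa carries as transgenes, nub was not called in Quad (adjusted p = 0.538), nor was hb (adjusted p = 0.237), whose Quad libraries had 6.99, 2.83 and 1.81 RPKM against 1.40 to 1.72 in the controls.

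With these 3 transgenes included, 134 genes were higher in Quad and 156 lower, which is 290 of 6190 (4.68% called, 2.16% higher and 2.52% lower). The rises were larger than the falls: the median log2 change of the called genes was 1.70 among the higher and -0.93 among the lower, against 0.02 over all tested genes. A change of at least 2-fold was found in 91 of the higher genes (1.47% of those tested) and 74 of the lower (1.2%), and a change of at least 2 on the log2 scale in 60 and 19. Of the higher genes 34 had a control mean under 0.5 RPKM, and of the lower genes 23 had a Quad mean under 0.5 RPKM. The number of calls was 163 without control 1, 322 without control 2, 131 without control 3, 129 without Quad 1, 160 without Quad 2 and 165 without Quad 3. In each of the 6 fits without 1 library 107 of the calls were kept, 68 higher and 39 lower, and 67 of these 107 are genes known by a CG number only.

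**Figure D1:**
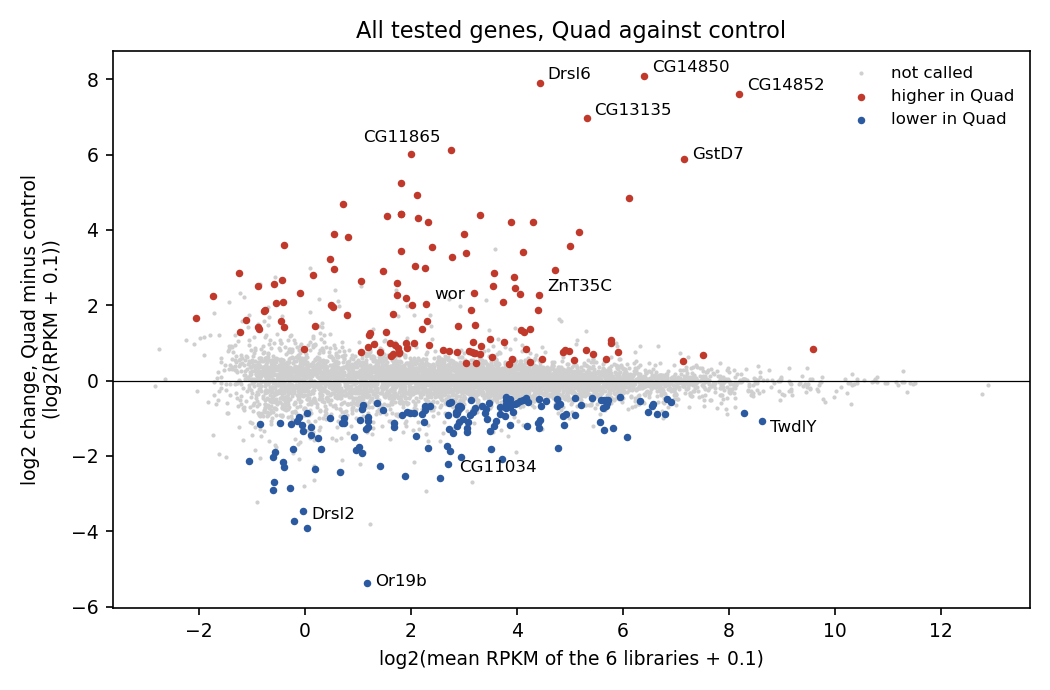
Mean level over the 6 libraries (horizontal, log2 of RPKM + 0.1) against the log2 change of Quad minus control (vertical) for each tested gene. Genes called higher are red and reach log2 8.09 at CG14850, genes called lower are blue and reach -5.36 at Or19b, and grey genes are not called.

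Genes that the table names only by a CG number made up 178 of the 290 calls. Of 2716 such genes tested, 81 were higher and 97 lower (6.55%), against 43 and 52 of 3034 genes with other symbols (3.13%) and 7 and 7 of 434 genes with a CR number (3.23%). The share called was higher for CG genes in each band of expression: 4.61% against 4.22% for all other names at a mean of up to 2 RPKM, 8.19% against 3.42% between 2 and 10, 6.48% against 2.63% between 10 and 50, and 5.54% against 2.35% above 50. The annotation used here has since given a symbol to 20 of the 178.

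The largest rise of all was in CG14850, now named Jig, on chromosome arm 3R. It had 0.333, 0.806 and 0.514 RPKM in the controls and 175, 167 and 164 in Quad (log2 8.09 ± 0.290, adjusted p = 1.25e-06). The neighbouring gene CG14852 had 2.55, 4.70 and 1.96 RPKM in the controls and 552, 593 and 591 in Quad (log2 7.60 ± 0.302, adjusted p = 1.25e-06). Both genes were low in all 3 controls and differed little among the 3 Quad libraries. CG14851 and CG8087 lie between them on the arm. CG14851 went from 4.17, 5.46 and 4.22 RPKM to 143, 133 and 127 (log2 4.84 ± 0.198), and CG8087 from at most 0.156 RPKM to 5.66, 10.9 and 3.61 (log2 5.25 ± 0.463). These 4 adjacent genes formed the longest run of neighbours with the same call in the genome. The gene next to CG14850, CG14854, was not called. CG31313, which overlaps CG14852 on the other strand in the annotation, was lower in RPKM (log2 -0.70, adjusted p = 0.0313), but its deposited counts gave a higher level in Quad (log2 0.58 by edgeR), and the call was lost on leaving out control 1, control 3, Quad 1 or Quad 3 (highest adjusted p 0.127).

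Other CG genes went from near absence to moderate levels. CG13135 had 0.456, 0.796 and 0.386 RPKM in the controls and 82.2, 94.0 and 60.3 in Quad (log2 6.96 ± 0.295, adjusted p = 1.62e-06). CG11865 had 0.0256, 0.0253 and 0 RPKM in the controls and 5.23, 7.74 and 10.3 in Quad (log2 6.03 ± 0.302, adjusted p = 3.40e-06). CG31219 had 0.155, 0.217 and 0.157 RPKM against 9.06, 6.85 and 9.10 (log2 4.93 ± 0.303, adjusted p = 1.32e-05). In none of these did the groups come near each other. CG5867, now named Jhbp14 after the family of juvenile hormone binding proteins, rose from 0.708, 0.659 and 1.03 RPKM to 16.0, 17.05 and 23.4 (log2 4.398 ± 0.228, adjusted p = 4.29e-06). CG43172 and CG46305 occupy the same place in the annotation and have the same RPKM in every library, so their rise from 0.182, 0.199 and 0.268 RPKM to 6.43, 6.64 and 6.86 (log2 4.42 ± 0.190) is 1 measurement. The overlapping row CG43200 rose with them (log2 3.89 ± 0.245). CG43172, CG46305 and CG43200 have 0 reads in the count columns of the 6 libraries, so their calls rest on RPKM alone.

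The remaining rises among the 12 largest of this class were those of CG10918 (log2 4.21 ± 0.426) and CG32071 (log2 4.36 ± 0.622). CG32071 differed most among the Quad libraries, with 10.8, 4.37 and 1.55 RPKM, against 0.0712 to 0.144 RPKM in the controls. Genes with overlapping groups were not eligible for the 12 largest rises. All 12 rises kept their call without any 1 of the libraries. For genes near 0 the size of the change depends on the pseudocount: CG11865 changed by log2 8.33 with a pseudocount of 0.01 and by 3.07 with 1, and CG8087 by 6.91 and 2.74.

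Falls among CG genes were smaller and left most genes clearly expressed. CG11034 had 10.3, 11.2 and 10.4 RPKM in the controls and 2.35, 1.94 and 2.36 in Quad (log2 -2.22 ± 0.121, adjusted p = 6.21e-06), with little spread in either group. CG42792 had 5.36, 7.003 and 6.12 RPKM in the controls and 0.744, 1.82 and 0.653 in Quad (log2 -2.54 ± 0.316, adjusted p = 0.00180). CG44475, the next tested gene on arm 2L, moved the other way, from 0.887, 0.501 and 0.848 RPKM to 8.92, 9.65 and 10.03 (log2 3.54 ± 0.283, adjusted p = 9.62e-05). Also lower were CG13312 (log2 -1.87 ± 0.265, adjusted p = 0.00392), CG5550 (log2 -1.82 ± 0.254, adjusted p = 0.00365) and CG6048 (log2 -1.35 ± 0.180, adjusted p = 0.00270).

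In CG10182, CG2065 and CG31370 the control mean rested much on control 2. These genes had 19.7, 72.7 and 17.7 RPKM in control 2, against 4.62 and 5.84, 28.8 and 28.2, and 6.25 and 6.14 in control 1 and control 3. Their Quad libraries had 0.735 to 2.61, 10.9 to 11.3 and 2.03 to 3.24 RPKM. That these lie below every control follows from the choice of genes without overlap. The calls of CG2065 and CG31370 were lost on leaving out a single Quad library (highest adjusted p 0.0578 and 0.135). DESeq2 on the 42 deposited reads of CG2065 gave a log2 change of -0.23 (adjusted p = 0.974). The call of CG10182 was lost without control 3, Quad 1 or Quad 3 (highest adjusted p 0.146). Of the other 4 among the 12 largest falls, CG8628, now named Acbp3 after the acyl-CoA binding proteins, was lost on leaving out control 2, control 3, Quad 1 or Quad 3 (highest adjusted p 0.114) and CG13813 without control 3 (adjusted p = 0.0580). CG8661 was lost on leaving out any library other than control 1 (highest adjusted p 0.165), and CG14500 whichever library was left out (highest adjusted p 0.170).

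**Figure D2:**
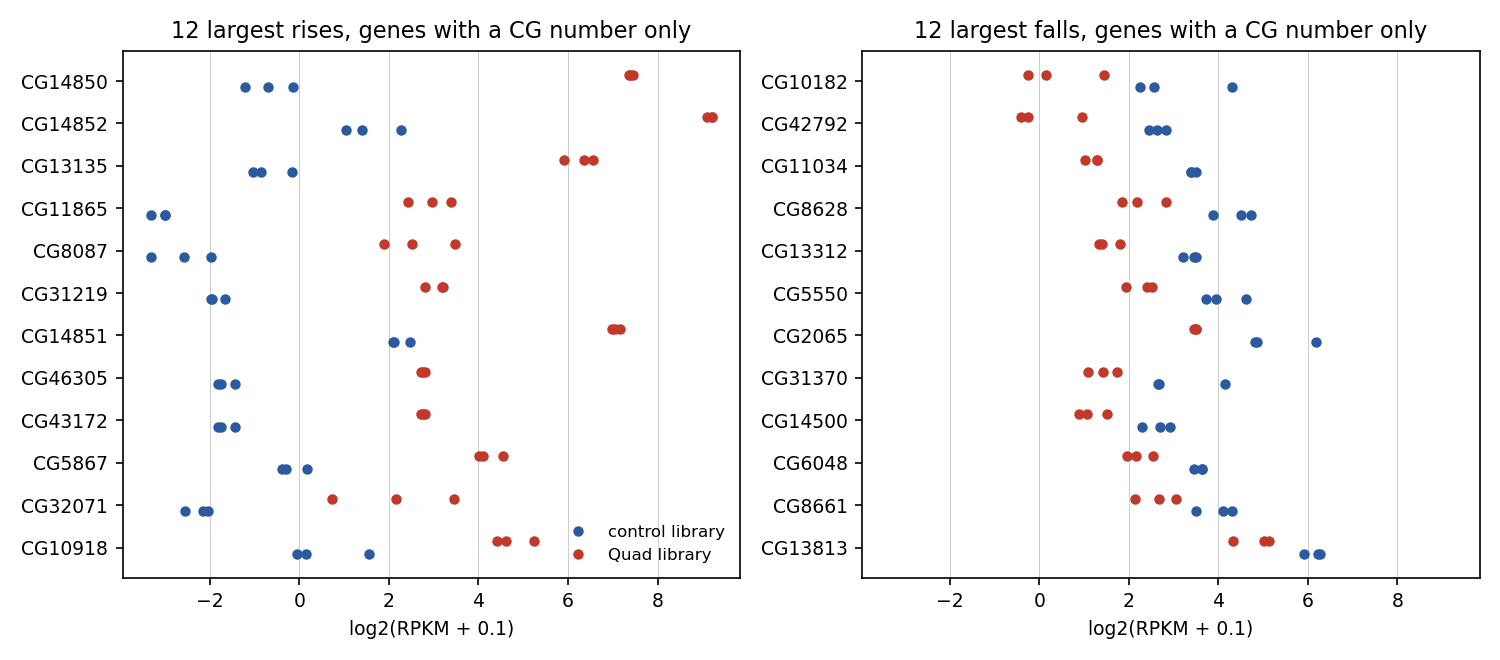
RPKM of each control library (blue) and each Quad library (red) on a log2 scale (RPKM + 0.1) for the 12 largest rises (left) and the 12 largest falls (right) among genes with a CG number only. The genes were chosen without overlap of the groups, so red and blue points of a gene are separate by choice. In CG14850 and CG14852 the Quad libraries reach 175 and 593 RPKM.

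Some called genes lay beside each other. Of 6007 pairs of neighbouring tested genes 49 had both members called, 34 of them in the same direction, and 82 of the 288 called genes with a place in the annotation belonged to such a pair. Neighbours can be duplicated genes that share reads, or overlapping genes, and how the authors assigned such reads is not given in the sources used here. Runs of at least 3 neighbours with the same call were found at 6 places. Besides the run around CG14850 and the overlapping rows at CG43172, these were CG15254, CG15253 and CG11865 on 2L, CG13560, CG34105 and CG12491 on 2R, and lcs, CG1678 and CG10918 on X, all higher, and goe, TwdlX and TwdlY on X, all lower.

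Within the run on 2L the size differed from gene to gene. CG11865 rose by log2 6.03, CG15253 by 2.20 (from 1.10, 1.29 and 1.26 to 4.72, 5.19 and 8.48 RPKM) and CG15254 by 0.95. The next gene, CG15255, was lower, at 6.47, 6.30 and 4.92 RPKM in the controls and 3.02, 2.73 and 3.65 in Quad (log2 -0.89 ± 0.163, adjusted p = 0.0145). The call of CG15254 was lost on leaving out any library other than Quad 2 (highest adjusted p 0.117), and that of CG15255 without control 1, Quad 1 or Quad 2 (highest adjusted p 0.0693).

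On the X chromosome, lcs had 0.847, 3.48 and 2.12 RPKM in the controls and 39.6, 45.9 and 26.7 in Quad (log2 4.22 ± 0.446, adjusted p = 0.00105). CG10918 had 0.862, 2.86 and 1.01 RPKM against 24.6, 37.7 and 21.1. Both genes were chosen as called higher without overlap, so their shared rise in the 3 Quad libraries follows from the choice. The gene between them, CG1678 (now whe), stayed low, at 1.23, 0.874 and 0.440 RPKM in Quad against 0.104 to 0.163 in the controls (log2 1.88 ± 0.380), a call lost on leaving out any library other than Quad 3 (highest adjusted p 0.0976). Cyp6t1, the next tested gene after CG10918, was lower in Quad.

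Another part of the X chromosome held 3 adjacent calls of alternating direction, at y, yar and ase. The pigmentation gene yellow (y) had 34.1, 44.7 and 31.4 RPKM in the controls and 76.5, 63.3 and 78.6 in Quad (log2 0.99 ± 0.167, adjusted p = 0.00949), and was lost on leaving out Quad 1 (adjusted p = 0.0537). The noncoding RNA yar had 4.83, 3.47 and 4.61 RPKM in the controls and 1.74, 1.98 and 1.99 in Quad (log2 -1.12 ± 0.246, adjusted p = 0.0347), a call lost on leaving out control 1, control 3 or a single Quad library (highest adjusted p 0.135). The gene ase is itself one of the transgenes, and which of its reads come from the endogenous gene is not known.

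Pairs of neighbours on 3L rose together. CG32188 and CG32189 had 2.18, 11.6 and 4.04 and 0.935, 9.97 and 7.20 RPKM in the controls, against 50.5, 73.0 and 49.4 and 67.6, 74.0 and 56.6 in Quad (log2 3.57 ± 0.544 and 3.96 ± 0.738). CG17362 and CG9040 went from 2.90, 9.95 and 6.39 and 2.94, 7.52 and 4.20 RPKM to 38.5, 63.1 and 36.3 and 22.6, 36.0 and 19.9 (log2 2.94 ± 0.441 and 2.45 ± 0.360). In all 4 genes replicate 2 was the highest library of its own group, in the controls as in Quad. The same held for CG34105 and CG12491 on 2R, at 0.814, 6.57 and 3.06 and 1.24, 6.91 and 3.55 RPKM in the controls and 20.2, 26.4 and 13.2 and 16.9, 27.6 and 13.3 in Quad. Their neighbour CG13560 had 0.0850 to 0.266 RPKM in the controls and 2.57, 3.26 and 1.43 in Quad (log2 3.23 ± 0.349). The call of CG32189 was lost on leaving out a single Quad library (highest adjusted p 0.0752). CG34105 was lost in those fits and without control 3 (highest adjusted p 0.151), and CG12491 in all of these and without control 1 (highest adjusted p 0.165).

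**Figure D3:**
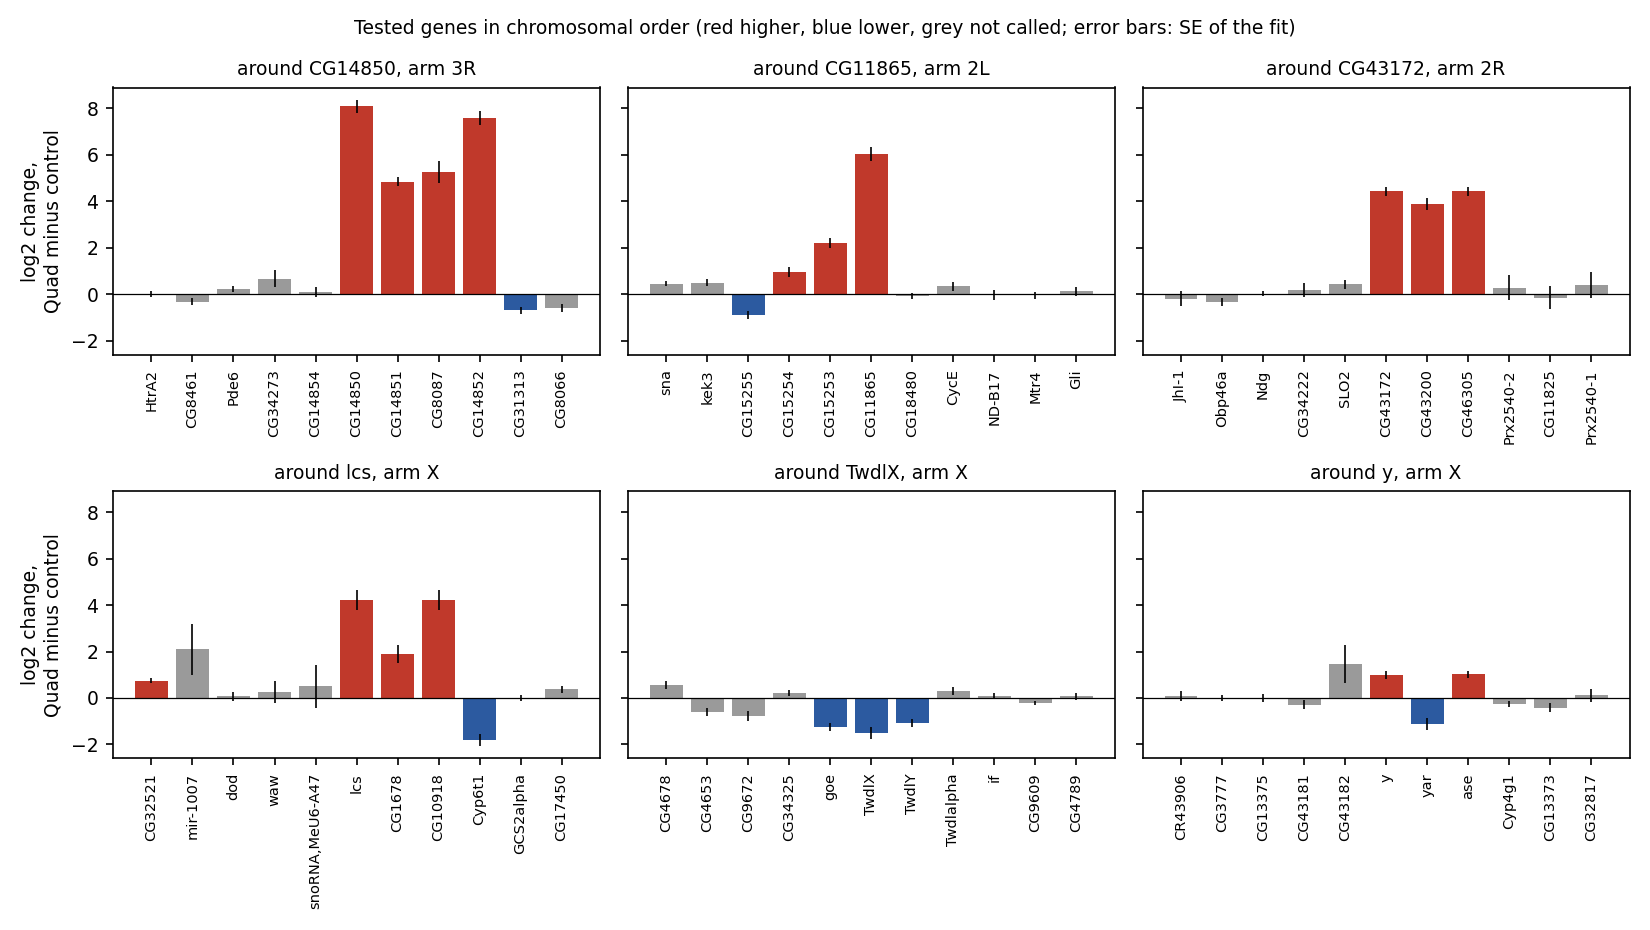
Log2 change of Quad minus control (vertical, with SE of the fit) for tested genes in their order on the chromosome arm around 6 genes. Red bars are called higher, blue lower and grey not called; the runs of red and blue bars end within a few genes, with CG14854 beside CG14850 and Twdlalpha beside TwdlY not called.

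Genes of detoxification changed in both directions. The cytochromes P450 are oxidases of foreign compounds and hormones, glutathione S-transferases (Gst genes) couple glutathione to reactive compounds, and UDP-glycosyltransferases (Ugt genes) couple sugars to them for excretion. Of 49 tested P450 genes 5 were higher and 5 lower (20.4%, against 4.64% of all tested genes without the transgenes), with a median log2 change of 0.07. Of the 5 higher genes Cyp4p2 had the largest level, with 4.27, 5.87 and 4.83 RPKM in the controls and 24.3, 18.9 and 21.2 in Quad (log2 2.09 ± 0.145, adjusted p = 3.00e-05). Cyp4d8 rose from 0.221, 0.123 and 0.171 RPKM to 2.10, 1.24 and 2.20 (log2 2.82 ± 0.306), Cyp6w1 from 0.236, 0.755 and 0.520 to 3.14, 3.35 and 3.85 (log2 2.65 ± 0.317) and Cyp6a2 from 0.461, 1.05 and 0.648 to 2.44, 2.51 and 2.68 (log2 1.75 ± 0.274). Cyp4ac1 was the other higher member (log2 1.22). Cyp4d8 passed the filter through Quad alone, so the share of 20.4% depends in part on the filter.

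Among the lower P450 genes Cyp6t1 had 2.15, 1.27 and 2.09 RPKM in the controls and 0.532, 0.372 and 0.425 in Quad (log2 -1.81 ± 0.273, adjusted p = 0.00552), and Cyp310a1 3.64, 2.57 and 3.16 against 1.22, 1.26 and 1.27 (log2 -1.24 ± 0.181, adjusted p = 0.00463). Cyp28d1 was the most abundant of the 10, at 104, 122 and 118 RPKM in the controls and 63.0, 73.0 and 78.9 in Quad (log2 -0.68). Cyp309a1 (log2 -0.67) and Cyp6a18 (log2 -0.66) were also lower. Cyp28d1 and Cyp6a18 were lost whichever library was left out (highest adjusted p 0.135 and 0.137). Cyp4ac1 was lost on leaving out control 1, control 3 or a single Quad library (highest adjusted p 0.126), and Cyp309a1 without control 1, control 3, Quad 1 or Quad 2 (highest adjusted p 0.0512). The count columns hold only 62 reads of Cyp6w1, and it was not called on counts.

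Of 26 Gst genes 3 were higher and 1 lower (15.4%), and the 3 higher ones all belong to the GstD group, which lies in 1 cluster on 3R. GstD7 had 3.10, 4.79 and 6.24 RPKM in the controls and 219, 263 and 355 in Quad (log2 5.88 ± 0.307, adjusted p = 6.51e-06). Its neighbour GstD6 had 0.111, 2.38 and 0.115 RPKM in the controls and 7.05, 9.73 and 10.2 in Quad (log2 4.21 ± 0.858). GstD1 was abundant in both groups, at 122, 152 and 144 RPKM in the controls and 213, 234 and 224 in Quad (log2 0.69 ± 0.137). The 3 genes had no overlap between groups, which the choice of GstD7 and GstD6 among the largest rises required. GstD6 and GstD1 were lost on leaving out control 1, control 3 or a single Quad library (highest adjusted p 0.118 and 0.0967). GstD5, next to GstD6, was not called: it had 0.711, 7.28 and 1.65 RPKM in the controls and 9.25, 9.15 and 11.05 in Quad (adjusted p = 0.122). The limma fit without control 2 called GstD5. Genes of the cluster are similar in sequence, so that reads may have been shared between them. GstE9 was lower (log2 -0.49, adjusted p = 0.0432), which was lost on leaving out any library other than Quad 3 (highest adjusted p 0.174).

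Of 28 Ugt genes 2 were higher and 3 lower (17.9%), and the median log2 change was -0.26, with 20 of 28 negative. The 2 higher genes are neighbours on 3R. CG5999, now Ugt37A3, had 0.958, 1.92 and 1.19 RPKM in the controls and 11.6, 13.8 and 18.9 in Quad (log2 3.38 ± 0.278, adjusted p = 1.22e-04). CG5724, now Ugt37A2, had 5.02, 6.24 and 4.96 RPKM in the controls and 21.3, 26.9 and 34.4 in Quad (log2 2.31 ± 0.283, adjusted p = 0.00180). In both genes Quad 3 was the highest library. The lower members changed less: Ugt36Ba had 33.9, 34.5 and 33.5 RPKM in the controls and 22.8, 21.0 and 22.98 in Quad (log2 -0.61 ± 0.0929, adjusted p = 0.00599), which was not called by edgeR on counts (highest adjusted p 0.0602). Ugt35b (log2 -0.60) was lost whichever library was left out (highest adjusted p 0.151), and CG18869, now Ugt305A1 (log2 -0.67), on leaving out control 1, control 3 or a single Quad library (highest adjusted p 0.103). In 13 of the 28 genes every Quad library was below every control, against 15% of all tested genes (30.2% in either direction).

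Genes of metal handling were called in 4 of 20 cases, all higher (20%), while the median of the list was log2 0.01. ZnT35C, a zinc transporter, had 8.19, 6.14 and 7.51 RPKM in the controls and 37.5, 32.9 and 35.5 in Quad (log2 2.27 ± 0.139, adjusted p = 1.32e-05). Metallothioneins are small proteins that bind copper, zinc and cadmium: MtnA had 554, 463 and 642 RPKM in the controls and 1025, 943 and 998 in Quad (log2 0.85 ± 0.183, adjusted p = 0.0322), and MtnB 0.164, 0.162 and 0.901 against 7.10, 8.97 and 8.32 (log2 4.32 ± 0.475, adjusted p = 0.00126). Tsf1, which encodes the iron carrier transferrin, went from 0.147, 0.168 and 0.180 RPKM to 1.05, 0.988 and 0.996 (log2 2.07 ± 0.195, adjusted p = 3.23e-04). In each of the 4 genes the Quad libraries lay close together. The groups were separate too, which the choice of ZnT35C and MtnB among the largest rises required. The call of MtnA was lost on leaving out control 1, control 2 or a single Quad library (highest adjusted p 0.131). The count columns hold 13 reads of MtnB and 0 of Tsf1 in the 6 libraries, so these calls rest on RPKM alone. The other members, among them the ferritin genes Fer1HCH and Fer2LCH, were not called. Tsf1 passed the filter through Quad and Hexa alone, and MtnB through these and a single control. The share of 20% therefore depends in part on the filter.

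Of 240 chemosensory genes in the data 44 passed the filter, and 7 of these 44 were called, 3 higher and 4 lower (15.9%). The odorant receptor genes Or19a and Or19b were nearly absent from Quad. Or19b had 4.26, 4.83 and 3.79 RPKM in the controls and 0, 0.0204 and 0 in Quad (log2 -5.36 ± 0.304, adjusted p = 7.42e-06), and Or19a 1.37, 2.12 and 1.06 against 0.0181, 0.0408 and 0 (log2 -3.72 ± 0.383, adjusted p = 6.09e-04). The 2 genes are close copies whose reads may be shared. Or19b was the largest fall among all tested genes. Ir64a, an ionotropic receptor gene, was listed at 0 in all 3 controls and at 0.421, 0.712 and 0.798 RPKM in Quad (adjusted p = 9.14e-04). Or19a and Or19b passed the filter through the controls alone, and Ir64a through Quad and Hexa. The share of 15.9% therefore depends in part on the filter.

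Obp56g, an odorant-binding protein gene, had 0.812, 0.847 and 0.746 RPKM in the controls and 5.63, 7.64 and 9.03 in Quad (log2 3.04 ± 0.210, adjusted p = 3.00e-05). Ir87a rose from 1.72, 1.51 and 1.51 RPKM to 3.87, 4.08 and 4.02 (log2 1.29 ± 0.184, adjusted p = 0.00420). Ir76a fell by 1.45 on the log2 scale and Obp8a by 1.14. Ir76a was lost on leaving out control 3 or Quad 1 (highest adjusted p 0.0556) and Obp8a whichever library was left out (highest adjusted p 0.169).

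Immune and stress peptides split within families. The drosomycin-like genes encode relatives of the antifungal peptide drosomycin and lie in 1 region of 3L. Drsl6 had 0.0561, 0.0555 and 0.116 RPKM in the controls and 31.4, 37.9 and 59.6 in Quad (log2 7.90 ± 0.312, adjusted p = 1.25e-06). Drsl2 had 2.02, 1.16 and 1.88 RPKM in the controls and 0.127, 0.0712 and 0 in Quad (log2 -3.47 ± 0.448, adjusted p = 0.00225). Drsl5 had 15.5, 6.11 and 15.6 RPKM against 3.59, 2.96 and 1.87 (log2 -2.03 ± 0.438, adjusted p = 0.0368), a call lost on leaving out control 1, control 3 or a single Quad library (highest adjusted p 0.139). Drs itself was not called. Victoria, now TotE, of the Turandot stress genes, fell from 1.91, 1.59 and 1.97 RPKM to 0, 0.0454 and 0.0434 (log2 -3.91 ± 0.352, adjusted p = 2.31e-04), while TotA, TotB, TotC and TotF were not called.

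Of 35 immune effector genes tested these 4 were called (11.4%), and 18 had a positive log2 change. Drsl6 passed the filter through Quad and Hexa alone, and Victoria through the controls alone. Drsl2 reached 0.5 RPKM in the controls and a single Hexa library. The share of 11.4% therefore depends in part on the filter. Among 20 genes of immune recognition and signalling PGRP-SB2 alone (5.0%), a peptidoglycan recognition protein gene, was called, with 0.0947, 0.111 and 0.0330 RPKM in the controls and 21.4, 10.05 and 8.41 in Quad (log2 6.12 ± 0.363, adjusted p = 1.48e-05). The antibacterial peptide genes AttA, AttB, CecA1, CecC, DptB, Dro and Mtk were tested and not called. Of 16 heat shock genes none was called by limma, and 6 had a positive log2 change. Their summed level was 1099 to 2213 RPKM in the controls and 895 to 2555 in Quad.

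Genes of the larval cuticle and gut were called about as often as all tested genes (4.64%). Among 64 genes of cuticle proteins, 3 were lower and none higher (4.69%), the median was log2 -0.15, and the summed level was 10948 to 11925 RPKM over the controls and 9206 to 9475 over the Quad libraries. In 21 of the 64 every Quad library was below every control and in 4 above, against 15% and 15.2% of all tested genes. TwdlY, the most abundant of the 3, had 599, 460 and 538 RPKM in the controls and 320, 219 and 227 in Quad (log2 -1.08 ± 0.189, adjusted p = 0.0123), and its neighbour TwdlX 114, 78.1 and 105 against 45.0, 23.4 and 38.4 (log2 -1.51 ± 0.245, adjusted p = 0.00785). The neighbouring gene goe overlaps TwdlX on the other strand in the annotation, and it fell from 28.9, 32.6 and 28.0 RPKM to 14.2, 9.69 and 13.7 (log2 -1.26 ± 0.172, adjusted p = 0.00322). No source used here says whether counting used strand, and reads of goe and TwdlX may not be separated. The count columns hold 1 read of goe in the 6 libraries, so its call rests on RPKM alone. Cpr72Ec was the third cuticle gene (log2 -1.34 ± 0.241, adjusted p = 0.0134). TwdlY was lost on leaving out control 1, control 3, Quad 2 or Quad 3 (highest adjusted p 0.0583) and Cpr72Ec without control 3 (adjusted p = 0.0590).

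Of 50 digestive genes of the midgut, thetaTry and Jon65Aiv were lower and none was higher (4.0%), with a median of log2 -0.19 and sums of 1177 to 1511 RPKM in the controls and 1053 to 1323 in Quad. The trypsin gene thetaTry had 4.80, 9.67 and 8.79 RPKM in the controls and 1.80, 2.39 and 2.04 in Quad (log2 -1.80 ± 0.298, adjusted p = 0.00883). Jon65Aiv (log2 -0.89) was lost whichever library was left out (highest adjusted p 0.150). Among 12 tanning genes, 1 was higher and 1 lower (16.7%). The higher gene was y, and the lower Pu, which encodes the first enzyme of pteridine synthesis (log2 -0.68 ± 0.126, adjusted p = 0.0145, but not on leaving out control 1, Quad 1 or Quad 3, highest adjusted p 0.0672). The 12 tested Osiris genes, expressed late in cuticle-secreting epithelia, all had positive log2 changes with a median of 0.34, and none was called by limma. Their summed level was 2701, 1583 and 2665 RPKM in control 1, 2 and 3 and 2371 to 2557 in Quad, so that control 2 stood apart and the other controls lay above every Quad library.

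**Figure D4:**
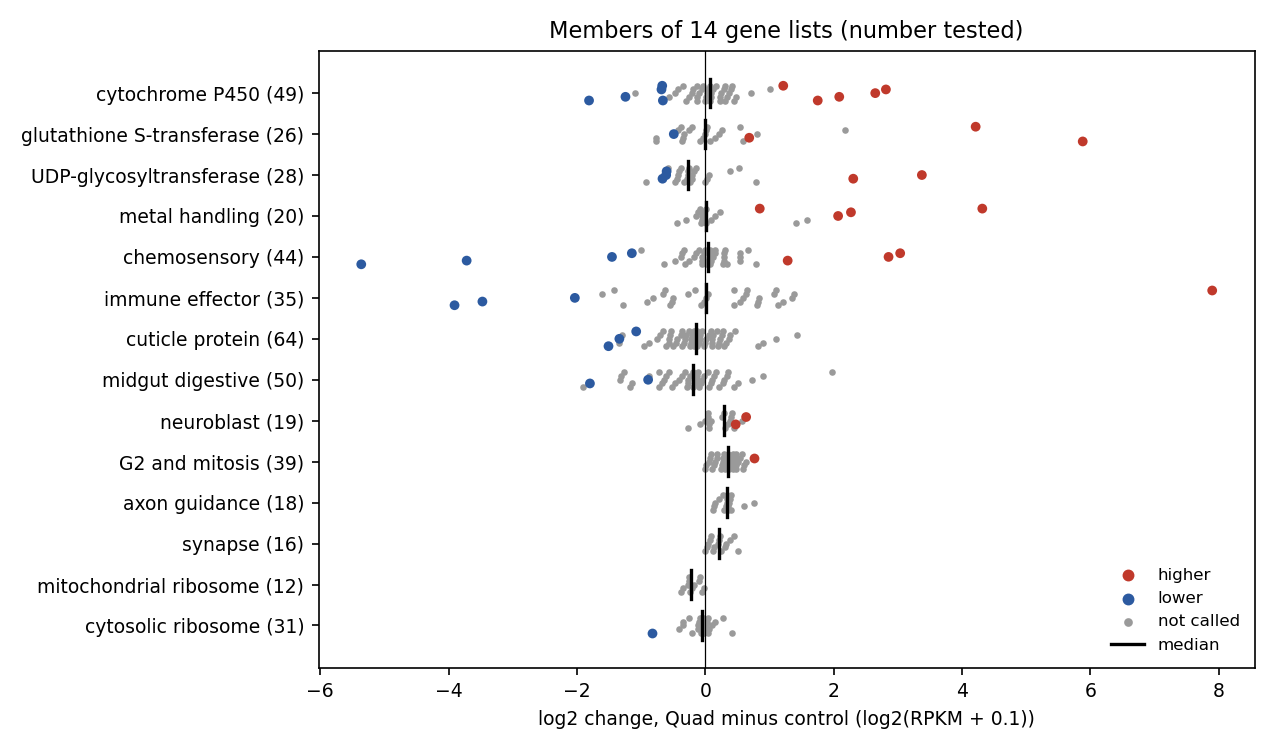
Log2 change of Quad minus control for the tested members of 14 gene lists; each point is 1 gene, coloured where called, and the black line is the median of the list. The called genes of these lists range from -5.36 for Or19b to 7.90 for Drsl6, while the mitosis and axon guidance lists have medians of 0.36 and 0.34 with 1 and 0 calls.

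The neuroblast list held 2 calls, and the lists of mitosis, DNA replication and DNA repair at most 1 each. Of 19 neuroblast genes other than the transgenes 17 had positive log2 changes, and the median was 0.30 against 0.02 over all tested genes. Called were nerfin-1 and klu (10.5%, against 4.64% of all tested genes). The zinc finger gene nerfin-1, expressed in neuroblasts and new neurons, had 9.49, 8.43 and 8.79 RPKM in the controls and 14.4, 13.98 and 13.3 in Quad (log2 0.64 ± 0.141, adjusted p = 0.0356). The neuroblast gene klu had 6.96, 7.13 and 6.34 RPKM in the controls and 9.26, 9.73 and 9.50 in Quad (log2 0.48 ± 0.113, adjusted p = 0.0466). Outside this list, spdo, a regulator of Notch in asymmetric division, rose from 2.57, 2.20 and 2.19 RPKM to 4.34, 3.84 and 3.38 (log2 0.71 ± 0.142, adjusted p = 0.0234), and the homeobox gene ems from 7.87, 7.92 and 7.55 to 11.3, 11.1 and 10.1 (log2 0.47 ± 0.0985, adjusted p = 0.0288).

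None of these 4 calls was stable to the loss of a library. The call of nerfin-1 was lost whichever library was left out (highest adjusted p 0.136), klu and ems on leaving out control 1, control 3 or a single Quad library (highest adjusted p 0.185 and 0.131), and spdo without control 3, Quad 1 or Quad 2 (highest adjusted p 0.110). The summed level of the 19 neuroblast genes was 186 to 208 RPKM in the controls and 219 to 234 in Quad.

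Of 39 genes of G2 phase and mitosis 38 had positive log2 changes, with a median of 0.36. Their summed level was 131 to 158 RPKM over the controls and 172 to 183 over the Quad libraries. In 21 of the 39 every Quad library was above every control, against 15.2% of all tested genes. The test called pav alone (2.56%), a kinesin gene of cytokinesis, with 1.59, 1.42 and 1.31 RPKM in the controls and 2.54, 2.37 and 2.64 in Quad (log2 0.77 ± 0.170, adjusted p = 0.0362), and this was lost whichever library was left out (highest adjusted p 0.140). Of 24 genes of DNA replication 14 had positive log2 changes, with a median of 0.05, and none was called by limma. Of 26 DNA repair genes 19 had negative log2 changes, with a median of -0.18. Their summed level was 122, 205 and 121 RPKM in control 1, 2 and 3 and 114.7 to 121 in Quad, so that control 2 alone stood apart. In this list mre11 alone (3.85%), which acts at double-strand breaks, was called lower, at 8.34, 12.6 and 8.96 RPKM in the controls and 3.69, 4.09 and 3.34 in Quad (log2 -1.38 ± 0.175, adjusted p = 0.00195). The light-dependent repair gene phr, outside the list, was higher, at 2.30, 2.07 and 2.70 RPKM against 8.13, 5.98 and 7.82 (log2 1.59 ± 0.167, adjusted p = 6.72e-04).

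Lists of neuronal genes with long transcripts held no call in the main limma fit. All 18 axon guidance genes had positive log2 changes, with a median of 0.34, as did all 16 genes of synapse and transmission, with a median of 0.21. The summed axon guidance genes stood at 241, 316 and 234 RPKM in control 1, 2 and 3 and at 315 to 334 in Quad, and the synapse genes at 267, 349 and 283 and at 313 to 357, so that control 2 lay within the range of Quad in both. An example is the Wnt receptor gene drl, at 29.3, 25.9 and 27.0 RPKM in the controls and 35.8, 33.6 and 35.0 in Quad (log2 0.34 ± 0.1003, adjusted p = 0.0948). The synapse gene Appl had 56.1, 83.6 and 62.6 RPKM in the controls and 82.7, 86.9 and 80.3 in Quad (adjusted p = 0.263). It was called in the limma fit without control 2. Transcript length moved with the sign of the log2 change: among tested genes whose longest annotated transcript exceeds 4000 bases, 77.5% of 815 had a positive log2 change, with a median of 0.14, against 45.4% to 50.8% in the bands of shorter transcripts. Of these 815 genes 8 were higher and 1 lower (1.1%). Of the axon guidance genes 14 exceed that length, and of the synapse genes 11 of the 15 with a length. Among mitosis genes 9 do, and 29 of the 30 shorter ones were positive. In neuroblast genes 11 of the 13 shorter ones were positive.

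The 3 controls did not share a level in the longest transcripts. The median deviation of genes over 4000 bases from their mean over all 9 libraries was log2 -0.06 in control 1, 0.30 in control 2 and -0.07 in control 3, and 0.18, 0.20 and 0.22 in Quad. Control 2 was thus above all Quad libraries, and its part in the list medians was not tested.

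**Figure D5:**
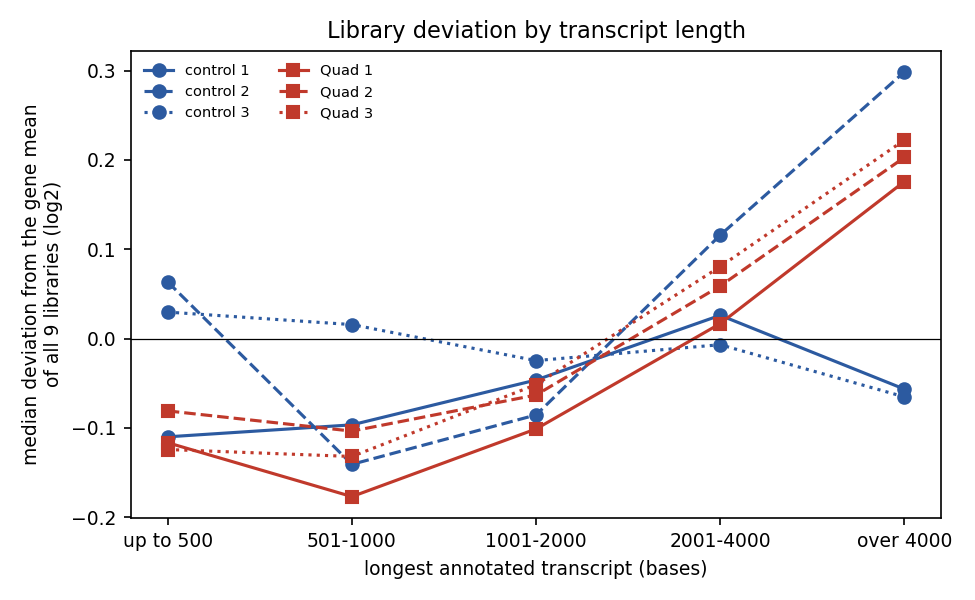
Median deviation of a library from the gene means of all 9 libraries (log2, vertical) for tested genes grouped by their longest annotated transcript (horizontal, bases), for 3 controls (blue) and 3 Quad libraries (red). In the longest band control 1 and control 3 lie at -0.06 and -0.07, control 2 at 0.30 and the Quad libraries at 0.18 to 0.22.

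Neuropeptide and hormone genes were mostly not called. Of 25 neuropeptide genes 10 had positive log2 changes and 1 was called (4.0%, against 4.64% of all tested genes). This was CCHa1, which was lower, at 4.44, 6.52 and 4.85 RPKM in the controls and 2.52, 3.45 and 2.64 in Quad (log2 -0.85 ± 0.196, adjusted p = 0.0413). The receptor gene NPFR rose from 4.601, 5.30 and 4.33 RPKM to 7.22, 8.58 and 8.73 (log2 0.77 ± 0.174, adjusted p = 0.0386). CCHa1 was lost whichever library was left out (highest adjusted p 0.164), and NPFR on leaving out control 1, control 3 or a single Quad library (highest adjusted p 0.143). Of 31 cytosolic ribosomal protein genes RpS5b alone was called (3.23%), at 124, 91.5 and 127 RPKM in the controls and 66.2, 59.4 and 65.5 in Quad (log2 -0.83 ± 0.138, adjusted p = 0.00883). All 12 mitochondrial ribosomal protein genes had negative log2 changes, with a median of -0.22 and none called by limma. Of 47 histone genes, near-identical copies, 1 was lower (2.13%), namely His2A,CG33865 (log2 -1.13, adjusted p = 0.0341). Of 117 snoRNA genes 1 was lower (0.855%), namely snoRNA,Me28S-A774b (log2 -1.83, adjusted p = 0.0468). The histone call was lost on leaving out control 1, control 3 or a single Quad library (highest adjusted p 0.143), and the snoRNA call on leaving out control 2, control 3, Quad 1 or Quad 3 (highest adjusted p 0.170).

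The remaining large falls among genes with a symbol concerned single genes of varied function. MFS1, of the major facilitator transporters, had 8.67, 9.04 and 10.02 RPKM in the controls and 3.32, 3.77 and 4.24 in Quad (log2 -1.27 ± 0.146, adjusted p = 0.00105). Sid, a stress-induced DNase gene, had 16.6, 15.9 and 16.7 RPKM against 7.73, 8.74 and 7.01 (log2 -1.06 ± 0.122, adjusted p = 0.00105). FucTC, a fucosyltransferase gene, had 10.9, 12.7 and 10.6 RPKM against 5.17, 4.49 and 6.14 (log2 -1.11 ± 0.146, adjusted p = 0.00256). In these 3 genes each Quad library was well under the lowest control. CREG (log2 -1.12 ± 0.159), CHKov1 (log2 -1.21 ± 0.181) and GILT3 (log2 -1.06 ± 0.197) were also lower, and GILT3 was lost on leaving out control 1, control 3, Quad 1 or Quad 3 (highest adjusted p 0.0685). CREG has 0 reads in the count columns of the 6 libraries, so its call rests on RPKM alone.

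Markers of other tissues showed no calls by limma: 15 muscle, 15 blood cell, 10 fat body and 6 glial genes were tested. Glial genes had positive log2 changes in 6 of 6 cases (median 0.25; sum 246 to 260 RPKM in the controls and 284 to 298 in Quad), and muscle genes in 6 of 15 (sum 13029 to 14141 and 12311 to 12619 RPKM). The summed blood cell genes stood at 1781 to 2040 RPKM in the controls and 1516 to 1952 in Quad, and the fat body genes at 480 to 598 and 542 to 587. Lists of Hox, Notch, signalling, ecdysone, apoptosis, sugar metabolism, oxidative phosphorylation and proteasome genes held no call by limma either. On chromosome arms the share of genes called was 5.02% on X, 5.7% on 2L, 5.01% on 2R, 4.14% on 3L and 4.51% on 3R, and 0 of 57 genes of chromosome 4 were called.

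The strongest changes of Quad were set against Hexa, whose embryos carry the same 4 transgenes together with hb and nub. Between Hexa and Quad 23.1% of tested genes were called. The sample descriptions place Hexa in experiment 3, so experiment and genotype cannot be told apart here either. In genes over 4000 bases the median deviation was log2 -0.18, -0.50 and -0.06 in Hexa against 0.18 to 0.22 in Quad. The part of transcript length in these calls was not tested. Quad was above Hexa in CG11865 (7.76 ± 2.54 against 0.239 RPKM, means with SD of 3 Quad libraries, adjusted p = 1.13e-04), CG31219 (8.34 ± 1.29 against 0.461 RPKM, adjusted p = 1.72e-04), Obp56g (7.43 ± 1.71 against 1.71 RPKM, adjusted p = 7.33e-04), GstD7 (279 ± 69.2 against 35.0 RPKM, adjusted p = 7.42e-04) and Cyp4d8 (1.85 ± 0.530 against 0.276 RPKM, adjusted p = 0.00200). In the controls CG11865 had 0.0170 and CG31219 0.176 RPKM. CG11034, lower in Quad than in the control, had 2.22 ± 0.239 RPKM in Quad and 7.96 in Hexa (adjusted p = 1.13e-04).

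Other genes that were higher in Quad than in the control were higher still in Hexa. CG8087 had 6.74 ± 3.79 RPKM in Quad and 120 in Hexa (adjusted p = 0.00121), lcs 37.4 ± 9.81 and 361 (adjusted p = 0.00311), CG13135 78.8 ± 17.1 and 302 (adjusted p = 0.00428) and Tsf1 1.01 ± 0.0356 and 108 (adjusted p = 2.42e-07). A difference was not called in CG14850 (169 ± 5.81 RPKM in Quad and 167 in Hexa, adjusted p = 0.873), ZnT35C (35.3 ± 2.30 and 41.1, adjusted p = 0.271), Cyp4p2 (21.5 ± 2.71 and 23.1, adjusted p = 0.584), phr (7.31 ± 1.16 and 7.69, adjusted p = 0.746) or wor (15.1 ± 3.71 and 18.2, adjusted p = 0.443). For CG14850 the log2 difference of Hexa minus Quad was -0.07 ± 0.290 (SE), for ZnT35C 0.21 ± 0.139 and for Cyp4p2 0.11 ± 0.145. Since the same Quad libraries enter both comparisons and the genes were chosen by their change in Quad, these values describe the named genes only.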

How the data were processed

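RNA of whole embryos was compared between 3 Quad and 3 control libraries, grouped and numbered from the sample titles. The authors deposited 1 table of 10221 genes with a raw count, a linear RPKM and a log2 RPKM per library, per the file headers. The log2 RPKM the authors deposited has a floor of -10.86, set to 0 here. The linear RPKM equalled it in all rows of all libraries (relative tolerance 1e-04), also in 2 control columns whose headers name another driver. Coordinates are left out because aligner, counting method and genome build are not given in the sources used here. The deposited count columns hold only part of the reads of many genes with several transcripts, and 275 tested genes have a count of 0 throughout, so the main test was limma (3.58.1) with trend and robust moderation on log2(RPKM + 0.1), all 9 libraries in 1 fit, group as the only term. Log2 changes of low genes are understated on this scale. edgeR (4.0.16) and DESeq2 (1.42.0) on counts were alternatives. With 1 fit over Hexa too, the spread of the 3 groups is shared.

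Names were matched to the release 6.54 annotation (Ensembl 115) for current symbols, arms, order and transcript length: of 6190 tested names 5023 matched by name, 853 by locus tag and 137 by synonym, and 177 did not. The test was run on simulated data with known changes and independent noise in each library. It recovered 26% of changes of 1.5-fold, 64% of 2-fold, 82% of 3-fold and 88% of 4-fold. Of its 136 calls 6 were unchanged genes. The simulation held no shift of a library by transcript length or replicate number, so it does not cover such shifts.

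Members, gene lists and tests were chosen with earlier results of these data known. Named genes are the transgenes, the 12 largest rises and falls among called genes without overlap and with at least 5 RPKM in the higher group, separately for genes with a symbol and with a number only, and up to 5 called members per list, with highest-level members of lists with few calls. Named after their values were seen were the neighbours in the runs and pairs (CG43200, CG15253, CG15254, CG15255, CG44475, CG31313, CG1678, CG13560, CG34105, CG12491, CG32188, CG32189, CG17362, CG9040, yar, GstD5), further called list members (Cyp6a2, Cyp4ac1, Cyp28d1, Cyp309a1, Cyp6a18, Ir76a, Obp8a), and spdo, ems and NPFR. Alternatives were other pseudocounts (0.01, 1), filters, TMM factors, the 6 libraries alone, a replicate term, count tests and leaving out each library.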

Additional observations from a re-analysis of the deposited data

How the results depend on the processing

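The count of called genes was 129 to 322 (76 to 180 higher, 51 to 142 lower) when 1 library was left out, and it was lowest without Quad 1 and highest without control 2. The other alternatives gave 226 to 378, all within 1.5 times of 290: pseudocounts of 0.01 and 1 gave 285 and 281, no filter 268, a filter of 2 RPKM 244, the 6 libraries alone 308, TMM factors 292, no trend 275, edgeR 231 or 232 and DESeq2 378. Similar totals did not mean the same genes. Of the 290 calls, edgeR shared 167 with TMM and 168 with DESeq2 size factors, and DESeq2 shared 197. Of 106 named genes with a call, 60 kept it without any 1 library, and 54 of these under every other alternative that gave a value. Named genes kept their direction under all alternatives except CG31313, with log2 0.58 by edgeR (0.582 with TMM, 0.583 with DESeq2 size factors) and 0.584 by DESeq2 on counts; the cause was not tested. TMM factors moved the median of all tested genes from log2 0.02 to 0.04. On counts both edgeR and DESeq2 lost the calls of MtnB, klu, GstD1, GstE9, Pu, Cyp6w1, Cyp6a18, CG15254, yar and snoRNA,Me28S-A774b. With edgeR alone GstD6, CCHa1, His2A,CG33865, Ugt36Ba, Ugt35b and Obp8a were lost, and with DESeq2 alone goe, CG2065, CG18869, RpS5b, CG15255, Ir76a, CG1678 and CG13560.

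With the replicate block 226 genes were called (114 higher, 112 lower), 201 of them among the 290. Among the genes named above the block lost the calls of SoxN, Drsl5, nerfin-1, klu, CCHa1, pav, GstE9, CG18869, Ugt35b, MtnA, Jon65Aiv and Obp8a. Also lost were CG15254, yar, spdo, ems, NPFR, Cyp4ac1, Cyp28d1, Cyp6a18, CG31313 and snoRNA,Me28S-A774b. Libraries of the same number correlated at 0.0981, 0.179 and 0.147 in their deviations from the group means, and each correlated best with its own number. The main fit nevertheless took the numbers not to pair the libraries. Whether libraries of the same number share a batch was not tested. With 3 libraries per group and a median SE of log2 0.183, small changes could seldom be called.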
